A study of Mus musculus with 47 samples.

Results

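The heat shock chaperones described here are 10 genes named from the HSF1-driven heat shock response and the constitutive chaperones that work beside it: Hspa1a, Hspa1b, Hspa8, Hsph1, Hsp90aa1, Hsp90ab1, Dnajb1, Hspb1, Bag3 and Hspe1. They were chosen by name from a table of 35486 genes, with earlier results of these data known, and the rule itself uses no measured value. All 10 were present and all 10 passed the filter on low counts, among 17778 genes tested. Hspe1 sits apart from the label, because its product, Hsp10, works in the mitochondrial matrix and not in the cytosol.

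The hippocampus was taken from male C57BL/6J mice that had gone through behavioral testing, and 1 RNA library was made per mouse. Mice received i.p. injections of vehicle (Veh) or of mouse platelet factor 4 (PF4), a chemokine released by platelets. The 4 groups were Young Veh (13 libraries, 3.75 to 5.26 months old), Young PF4 (12 libraries, 4.08 to 5.03 months), Old Veh (12 libraries, 17.47 to 19.97 months) and Old PF4 (10 libraries, 17.4 to 20.23 months). The labels name no transgene and no heat treatment. The comparisons ask whether age or PF4 moved the chaperone transcripts, and how the genes varied between mice of 1 group.

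Cytosolic chaperones bind proteins that are unfolded or not yet folded. Hsp70 proteins cycle between binding and release with the help of J proteins, which deliver clients and start ATP hydrolysis, and of nucleotide exchange factors, which let the client go; Hsp90 then takes over many signaling proteins. Heat shock factor 1 (HSF1) binds inverted repeats of the short sequence nGAAn in promoters, and raises the inducible members when unfolded protein accumulates. In neurons the constitutive member Hspa8 also uncoats clathrin-coated synaptic vesicles.

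Total counts ran from 2242879 to 21112908 per library. The 8 libraries of lowest total, at most 4963272 counts, were 4 Old Veh, 2 Young PF4, 1 Young Veh and 1 Old PF4. Markers of hippocampal excitatory neurons were high in every group, with a summed level between 2905 and 5902 CPM (counts scaled to a common library total) over 7 genes. The 10 markers of choroid plexus, a tissue that touches the hippocampus, ran from 12.0 to 4259 CPM in sum, and their median was 1943 CPM in Young Veh and 47.1 CPM in Old Veh. Each library was also given a GC index, the mean level of genes with a transcript GC content of at least 54.2% minus that of genes with at most 44.1%, and a length index, the mean level of genes with transcripts of at least 4594 bases minus that of genes with at most 2006 bases. In these bulk samples, fewer cells of a type and less RNA per cell cannot be told apart.

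In the genome build GRCm38, Hspa1a (chr17:34969190-34972156, minus strand) and Hspa1b (chr17:34956436-34959238, minus strand) are neighboring genes, and 58.8% of the 50-base words in the Hspa1a transcript also occur in Hspa1b. Hspa8 (chr9:40800984-40810087), Hsp90aa1 (chr12:110690605-110702728) and Hspb1 (chr5:135887919-135889563) share 52.7%, 58.5% and 51.6% of their words with other annotated genes, foremost Gm15459, Gm12346 and Hsp25-ps1. Counts of these 5 genes are therefore uncertain in level, because reads that match several places could be dropped or split. Hsph1 (chr5:149614287-149636376) and Bag3 (chr7:128523616-128546981) share none, Dnajb1 (chr8:83608193-83612653) shares 0.4% and Hsp90ab1 (chr17:45567775-45573271) 4.5%. Hspe1 (chr1:55088132-55091307) shares 8.2% and overlaps Hspd1 on the opposite strand. The library kit did not mark strand, so reads in the overlaps of Hspe1 with Hspd1 and of Hspa1a with Gm20481 cannot be assigned to one gene.

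Promoter sequence was available for 7 of the 10 genes, in 9 windows of 250 bases before to 50 bases after an annotated start (RefSeq, GRCm38.p6). The windows were searched for GAANNTTC and TTCNNGAA, the 2 ways in which a pair of inverted HSF1 units can meet. Each reads the same on both strands, and neighboring matches can overlap. Of 32851 windows in the whole table, 15.06% held at least 1 match and 0.256% held 3 or more. The 250 bases before the start are shown for the near-identical pair Hspa1a and Hspa1b and for 4 genes that differ in their matches, 5′ to 3′ on the gene's strand, with matches in capitals.

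Hspa1a (chr17:34972157-34972406): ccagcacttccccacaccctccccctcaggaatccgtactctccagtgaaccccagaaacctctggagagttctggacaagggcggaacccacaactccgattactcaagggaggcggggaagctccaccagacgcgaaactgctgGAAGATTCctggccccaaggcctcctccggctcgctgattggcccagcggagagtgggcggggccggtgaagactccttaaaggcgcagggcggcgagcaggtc
Hspa1b (chr17:34959239-34959488): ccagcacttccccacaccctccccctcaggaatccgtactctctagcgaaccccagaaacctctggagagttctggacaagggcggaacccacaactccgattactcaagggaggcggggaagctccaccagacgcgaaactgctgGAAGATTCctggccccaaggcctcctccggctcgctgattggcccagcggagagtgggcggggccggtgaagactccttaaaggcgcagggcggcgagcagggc
Hspe1 (chr1:55087898-55088147): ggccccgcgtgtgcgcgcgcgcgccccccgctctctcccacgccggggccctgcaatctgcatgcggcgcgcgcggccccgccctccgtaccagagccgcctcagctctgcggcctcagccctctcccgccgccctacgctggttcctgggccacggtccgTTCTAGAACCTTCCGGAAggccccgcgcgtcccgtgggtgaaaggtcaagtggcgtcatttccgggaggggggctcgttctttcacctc
Hspb1 (chr5:135887669-135887918): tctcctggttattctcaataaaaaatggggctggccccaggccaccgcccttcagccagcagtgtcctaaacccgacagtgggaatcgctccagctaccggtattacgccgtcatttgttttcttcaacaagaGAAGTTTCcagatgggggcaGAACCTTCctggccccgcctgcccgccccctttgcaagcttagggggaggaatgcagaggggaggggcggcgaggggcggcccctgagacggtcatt
Hsph1 (chr5:149636337-149636586): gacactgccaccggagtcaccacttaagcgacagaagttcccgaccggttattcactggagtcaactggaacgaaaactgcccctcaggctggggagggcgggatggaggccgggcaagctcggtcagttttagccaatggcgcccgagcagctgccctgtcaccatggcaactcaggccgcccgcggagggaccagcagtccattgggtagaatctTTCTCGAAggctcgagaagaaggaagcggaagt
Dnajb1 (chr8:83607925-83608174): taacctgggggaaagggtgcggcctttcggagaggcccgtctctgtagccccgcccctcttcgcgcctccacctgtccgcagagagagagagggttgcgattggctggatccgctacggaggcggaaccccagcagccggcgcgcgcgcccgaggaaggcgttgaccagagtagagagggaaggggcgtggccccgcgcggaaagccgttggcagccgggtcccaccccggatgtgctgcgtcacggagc

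The Hspa1a and Hspa1b stretches were identical at 247 of 250 positions, and each held 1 match, whose first base lay 104 bases before the start. Hspe1 held 3 matches that ran into each other, at 89, 84 and 79 bases before the start, so that all 3 fell in 1 run of capitals. Hspb1 held 2, at 117 and 97 bases before the start. Each of the 2 overlapping Hsph1 windows held 3, of which 1 lay before the start, and Bag3 held 1, at 43 bases after it. Neither Dnajb1 window held a match, which says only that these letters are absent from them. Hspa8, Hsp90aa1 and Hsp90ab1 had no entry.

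Read per length (RPKM, the CPM divided by the exon length in kilobases, mean ± SD, n = 47), the constitutive Hsp90ab1 stood first at 470.5 ± 20.7 RPKM. Hspa8 followed at 76.8 ± 9.61 RPKM, Hsph1 at 49.6 ± 5.64 RPKM and Hsp90aa1 at 35.7 ± 2.88 RPKM. These 4 kept this order in all 47 libraries. Hsp90aa1 shares 58.5% of its words with other genes and Hsph1 none, and reads could be lost alike in each library. The place of Hsp90aa1 below Hsph1 is therefore not settled by this. Dnajb1 (18.9 ± 2.64 RPKM) and Hspe1 (18.7 ± 1.94 RPKM) could not be ranked: Dnajb1 was higher in 24 of 47 libraries with all exons as length, and in 1 of 47 with the longest transcript. Bag3 (4.40 ± 0.745 RPKM) was above Hspa1a (2.82 ± 0.832 RPKM) in 44 libraries. Hspb1 (0.931 ± 0.514 RPKM) and Hspa1b (0.643 ± 0.201 RPKM) came last, and Hspb1 was the higher in 33 libraries. The heat-inducible Hspa1a and Hspa1b were far below their constitutive relative Hspa8, and the sequence they share limits how well these levels are known.

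**Figure D1:**
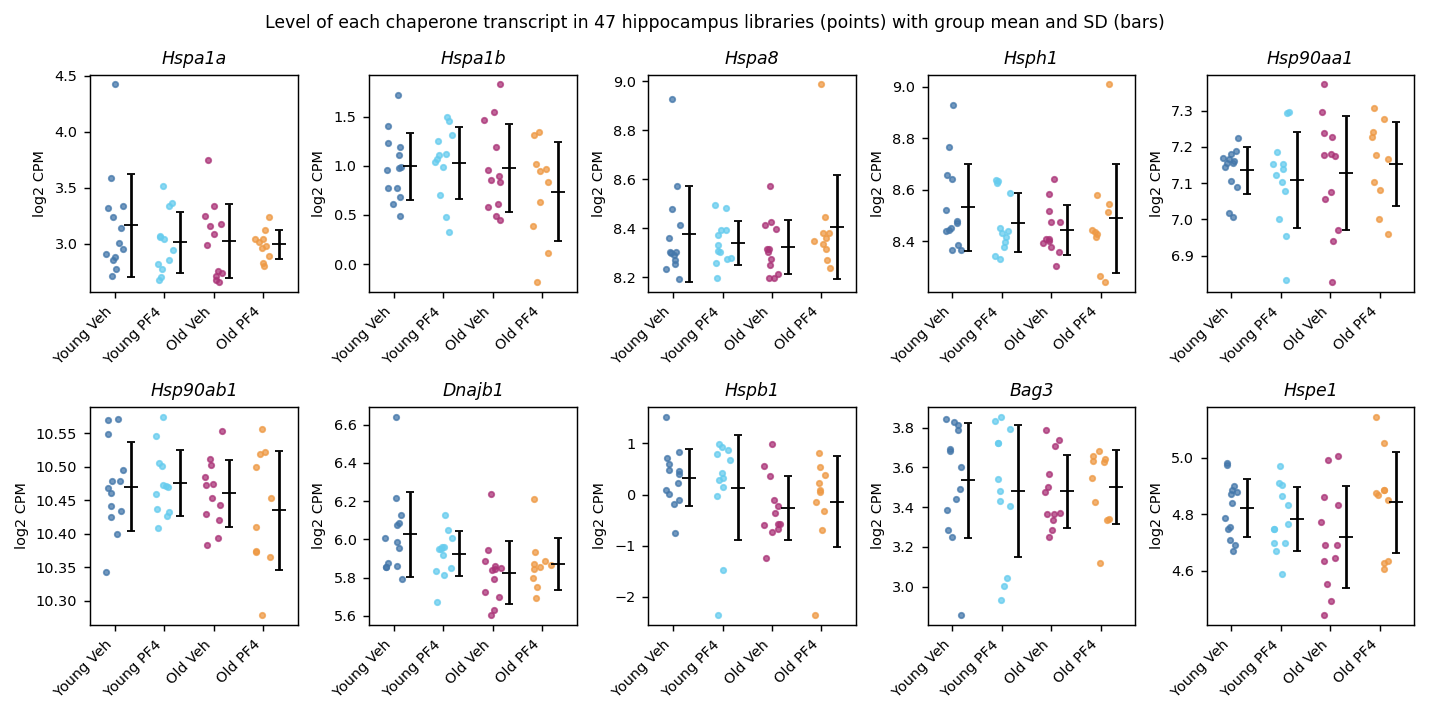
Level of each of the 10 chaperone transcripts in log2 CPM (vertical axis, own range per panel) in the 4 groups; points are libraries and bars give the group mean and SD. The groups overlap in every panel, and single libraries stand high for Hspa1a and Dnajb1 in Young Veh and for Hspa8 and Hsph1 in Young Veh and Old PF4.

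Neither age nor PF4 moved any of the 10 chaperones past the threshold in the fit over all genes (edgeR quasi-likelihood test, adjusted p below 0.05 over 17778 genes). In Old Veh against Young Veh 0 of 10 were called, beside 2.77% of all genes tested. In Old PF4 against Old Veh 0 of 10 were called beside 0.0337%, in Young PF4 against Young Veh 0 of 10 beside 0%, in Old PF4 against Young PF4 0 of 10 beside 0.332%, and for the difference of the PF4 effects between ages 0 of 10 beside 0%. DESeq2 called none of the members in these, and gave no adjusted p for Hspb1 in Old Veh against Young Veh or for Hspb1 and Hspa1b in Old PF4 against Old Veh. An unadjusted p under 0.05 was found for 1 of 10 in Old Veh against Young Veh, which was Dnajb1, beside 15.2% of all genes tested. It was found for 0 of 10 in the others, beside 6.2% in Old PF4 against Old Veh, 1.2% in Young PF4 against Young Veh, 8.27% in Old PF4 against Young PF4 and 3.98% for the difference of effects. None of the 10 had a pair of groups whose ranges did not overlap, beside 0.112% of all genes tested.

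In Old Veh against Young Veh all 10 fold changes lay below 0, with a median of -0.08 on the log2 scale, but 8 did with the length index as a covariate, 7 with the GC index, and 7 to 10 with 1 library left out, the 7 without Young Veh 10. Of all genes tested 54.7% lay below 0, with a median of -0.01. In Old PF4 against Young PF4, which shares no library with that comparison, 6 of 10 lay below 0 and the median was -0.02. In Old PF4 against Old Veh 3 of 10 lay below 0, with a median of 0.04 that was 0.01 without Old PF4 8, beside 46% of all genes. In Young PF4 against Young Veh 7 of 10 lay below 0, with a median of -0.03, beside 54.3% of all genes, and without the 8 libraries of lowest total count 4 did, with a median of 0.0045. For the difference of the PF4 effects between ages, only Hspa1b (-0.23) and Hsp90ab1 (-0.03) lay below 0. The others ran from 0.04 for Hsp90aa1 to 0.16 for Hspe1. Comparisons that share a control group are not independent of each other. The plot of fold changes shows how narrow the intervals were for the abundant genes and how wide for Hspb1 and Hspa1b.

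**Figure D2:**
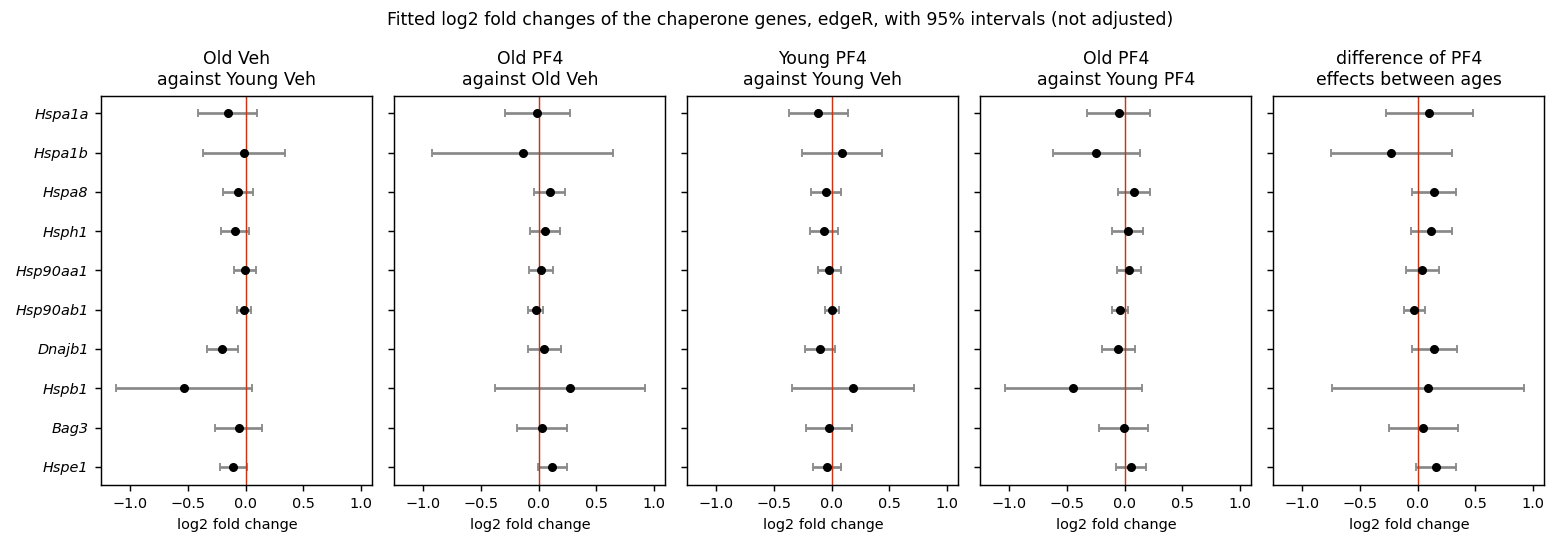
Fitted log2 fold change (horizontal axis) of each chaperone gene in the 5 comparisons, with 95% intervals from edgeR that are not adjusted for the number of genes. Only the interval of Dnajb1 in Old Veh against Young Veh leaves out 0. Hsp90ab1 has the narrowest intervals and Hspb1 and Hspa1b the widest. Intervals were derived from p, which gave Hspa1b SE 0.39 in Old PF4 against Old Veh, beside 0.21 in DESeq2.

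Among the Hsp70 genes, Hspa1a encodes an inducible Hsp70. Its lowest, median and highest levels were 2.71, 3.01 and 4.42 log2 CPM in Young Veh, 2.68, 3.00 and 3.51 in Young PF4, 2.66, 3.04 and 3.75 in Old Veh, and 2.80, 3.00 and 3.24 in Old PF4. The medians of all 4 groups lay between 3.00 and 3.04, and the highest value, in Young Veh 13, stood alone. Its fold change was -0.15 (SE 0.13, edgeR adjusted p = 0.605) in Old Veh against Young Veh, -0.01 (SE 0.14, adjusted p = 1) in Old PF4 against Old Veh and -0.11 (SE 0.13, adjusted p = 1) in Young PF4 against Young Veh. With 1 library left out the first ran from -0.21 to -0.07 and the last from -0.17 to -0.03, and -0.07 and -0.03 were the values without Young Veh 13. Hspa1b, the near-identical copy, rested on 3 to 37 counts per library and changed by -0.01 (SE 0.18, adjusted p = 0.989) with age in Veh mice. With both copies summed into 1 feature, the age difference was -0.13 (SE 0.12, adjusted p = 0.666) and the PF4 difference in old mice -0.04 (SE 0.13, adjusted p = 1).

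Hspa8 encodes Hsc70, the constitutive Hsp70 of neurons. Its lowest, median and highest levels were 8.19, 8.30 and 8.93 log2 CPM in Young Veh, 8.20, 8.32 and 8.49 in Young PF4, 8.20, 8.31 and 8.57 in Old Veh, and 8.24, 8.35 and 8.99 in Old PF4. The medians differed by little, and 1 Young Veh and 1 Old PF4 library stood far above the rest. The age difference in Veh mice was -0.06 (95% interval -0.19 to 0.07) and the PF4 difference in old mice 0.10 (95% interval -0.04 to 0.23), on the log2 scale. Without those 2 libraries, Young Veh 4 and Old PF4 8, the differences were -0.0036 with age, 0.02 with PF4 in old mice and 0.01 with PF4 in young mice. Hsph1, an Hsp110 that acts as a nucleotide exchange factor for Hsp70, had medians of 8.47, 8.44, 8.41 and 8.44 log2 CPM in Young Veh, Young PF4, Old Veh and Old PF4. Its age difference was -0.09 (95% interval -0.22 to 0.03), and its PF4 difference in old mice was 0.06 with all libraries and -0.01 without those 2.

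The Hsp90 genes had the narrowest intervals. Hsp90ab1, the constitutive form and the most abundant of the 10, ran from 10.28 to 10.57 log2 CPM over all 47 libraries. Its age difference was -0.01 (95% interval -0.07 to 0.05), and its PF4 difference was -0.02 (-0.09 to 0.04) in old and 0.00448 (-0.06 to 0.07) in young mice. Hsp90aa1, the inducible form, ran from 6.83 to 7.37 log2 CPM, with an age difference of -0.0047 (-0.10 to 0.09) and PF4 differences of 0.02 (-0.08 to 0.13) in old and -0.02 (-0.11 to 0.08) in young mice. None of these intervals, which are not adjusted for the number of genes, reached beyond 0.13 on the log2 scale.

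Of the co-chaperones, Dnajb1, the J protein (Hsp40) that serves inducible Hsp70, came closest to an age difference. Its lowest, median and highest levels were 5.79, 5.99 and 6.64 log2 CPM in Young Veh, 5.67, 5.95 and 6.13 in Young PF4, 5.61, 5.84 and 6.24 in Old Veh, and 5.69, 5.86 and 6.21 in Old PF4. Old Veh was lower than Young Veh by its median and by its mean (5.83 ± 0.17 against 6.03 ± 0.22 log2 CPM, SD, n = 12 and 13), and the ranges overlapped. The fold change was -0.20 (SE 0.07), with p = 0.0036 and adjusted p = 0.0865 in edgeR, and adjusted p = 0.0523 in DESeq2. It passed the threshold when Old Veh 9 was left out (-0.23, adjusted p = 0.0282), and without Young Veh 13 it was -0.15 (adjusted p = 0.154). In Old PF4 against Young PF4, on other mice, it was -0.05 (SE 0.07, adjusted p = 0.91). PF4 gave 0.05 (SE 0.07) in old and -0.10 (SE 0.06) in young mice, and the difference of these effects was 0.15 (SE 0.10, adjusted p = 1). With 1 library left out they ran from 0.0081 to 0.08 in old and from -0.12 to -0.05 in young mice.

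A measure of base composition differed between Young Veh and Old Veh. The median of the GC index was 0.03 in Young Veh (range -0.03 to 0.08) and -0.05 in Old Veh (range -0.21 to 0.01). These ranges overlap only in part, so a fit with the index cannot fully separate the index from age. With the index as a covariate, added after the values were seen, 2 of 10 genes were called in Old Veh against Young Veh: Dnajb1 (-0.25, adjusted p = 0.0291) and Hsph1 (-0.21, adjusted p = 0.0271), beside 920 genes in all. Between libraries of 1 group, Hsph1 went against the GC index (r = -0.533, rho = -0.394, permutation p = 0.00012 and 0.00489, adjusted p = 0.0006 and 0.0196; -0.346 without the 2 farthest libraries), and Dnajb1 had r = -0.211 (permutation p = 0.101, adjusted p = 0.183; -0.0369 without them). Hspa8 had r = -0.372 (rho = -0.175, permutation p = 0.0131 and 0.227, adjusted p = 0.0374 and 0.324), but -0.129 without them.

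Bag3, a co-chaperone that releases clients from Hsp70 and directs aggregates to autophagy, ran from 2.86 to 3.85 log2 CPM, and its medians were 3.60, 3.51, 3.43 and 3.59 in Young Veh, Young PF4, Old Veh and Old PF4. It differed by -0.06 (SE 0.10) with age in Veh mice and by 0.03 (SE 0.11) with PF4 in old mice. Hspb1, the small heat shock protein Hsp27 (Hsp25 in mice), had the largest fold change, on few counts: -0.53 (SE 0.29, p = 0.0744, adjusted p = 0.389 in edgeR) in Old Veh against Young Veh and -0.44 (SE 0.29, adjusted p = 0.742) in Old PF4 against Young PF4. It had at most 24 counts in any library and 0 in 2, Young PF4 8 and Old PF4 1, where 3 counts would be 1.13 and 0.868 CPM. Its median was 0.41 log2 CPM in Young Veh and -0.47 in Old Veh, and with 1 library left out the age difference ran from -0.84 to -0.45.

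Hspe1, which closes the Hsp60 folding chamber in mitochondria, had lowest, median and highest levels of 4.67, 4.84 and 4.98 log2 CPM in Young Veh, 4.59, 4.76 and 4.97 in Young PF4, 4.44, 4.69 and 5.01 in Old Veh, and 4.61, 4.87 and 5.14 in Old PF4. Its Old Veh and Old PF4 values spread wider than the young ones, and all groups overlapped. It was -0.10 (SE 0.06, adjusted p = 0.405) in Old Veh against Young Veh and 0.12 (SE 0.06, adjusted p = 0.838) in Old PF4 against Old Veh. The difference of the PF4 effects between ages was 0.16 (SE 0.09, p = 0.0704, adjusted p = 1). Hspd1, its partner and overlapping neighbor, was at -0.04 (SE 0.04) and -0.0073 (SE 0.04) in the same age and PF4 comparisons.

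The wider proteostasis network gave calls with age in Veh mice and none in the 4 other comparisons. Of 12 other J proteins, 2 rose in Old Veh, among them Dnajb14, a J protein of the endoplasmic reticulum (ER) membrane (0.16, SE 0.04, adjusted p = 0.016). Of 13 Hsp90 co-chaperones, 1 fell: Fkbp4, encoding the immunophilin FKBP52 (-0.16, SE 0.05, adjusted p = 0.0441). Of 14 ER chaperones, 2 fell: Pdia4, a disulfide isomerase (-0.52, SE 0.08, adjusted p = 1.06e-05), and Hyou1, an ER relative of Hsp110 (-0.50, SE 0.14, adjusted p = 0.0301), and 13 of the 14 lay below 0, with a median of -0.15. Over all genes tested in this comparison 2.77% were called and 54.7% lay below 0. In Old PF4 against Young PF4, on other mice, 0 of the 14 ER chaperones were called and 11 lay below 0, with a median of -0.08, beside 48.3% of all genes below 0. All 10 choroid plexus markers lay below 0 in both age comparisons, with medians of -0.92 and -1.05 and 0 called. Their part in the ER chaperone levels was not tested. No call fell among 5 genes of the HSF family, 8 other Hsp70 and Hsp110 genes, 8 partners of Hsp70, 8 TRiC subunits, 8 mitochondrial chaperones, or the 5 small heat shock protein genes tested of 8 listed. The smallest p in each of these lists belonged to Hsf1 (-0.04, adjusted p = 0.677), Hspa4 (0.09, adjusted p = 0.289), Bag2 (-0.15, adjusted p = 0.415), Cct4 (-0.08, adjusted p = 0.459), Hspa9 (-0.06, adjusted p = 0.336) and Hspb8 (-0.26, adjusted p = 0.289). Of the 2 RNA-binding genes that respond to temperature, 0 passed the test: Cirbp was at 0.18 (adjusted p = 0.194). Of 12 immediate early genes 0 passed, and the smallest p was that of Ier2 (-0.47, adjusted p = 0.0548). Lists that gave no call here held from 0 to 2 genes with an unadjusted p under 0.05. In the lists with a call, 9 of 14 ER chaperones, 4 of 13 Hsp90 co-chaperones and 2 of 12 other J proteins did. The share over all genes tested was 15.2%.

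Between mice of 1 group the 10 genes differed in how much they varied. The coefficient of biological variation in edgeR was lowest for Hsp90ab1, at 0.0576, and only 2.19% of genes tested were lower. Hsp90aa1 (0.0811) and Hspe1 (0.0849) followed, at the 18.3 and 21.8 percentiles. Dnajb1 (0.102), Hsph1 (0.107) and Hspa8 (0.113) were near the median gene, at 0.121. Bag3 (0.150), Hspa1a (0.176), Hspa1b (0.176) and Hspb1 (0.313) were more variable, with Hspb1 at the 94.3 percentile. They also had the lowest mean levels of the 10 genes (3.50, 3.06, 0.94 and 0.03 log2 CPM), and Hsp90ab1 had the highest (10.46). The percentiles are over all genes tested and not over genes of like level, so spread was not separated from level.

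The chaperones did not vary as 1 block. Over 47 libraries with group means removed, 10 of 45 pairs were correlated at an adjusted p below 0.05 (permutation within groups, 100000 resamples, two-sided, Benjamini-Hochberg over 45 pairs), 8 positively and 2 negatively. By rho 9 pairs passed, of which 6 also passed by r, and the other 3 were Dnajb1 with Hspa8, Dnajb1 with Hsp90ab1 (rho = 0.398, adjusted p = 0.0349) and Hspa1b with Hspb1 (rho = 0.393, adjusted p = 0.0385). All values share the library and its scaling.

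**Figure D3:**
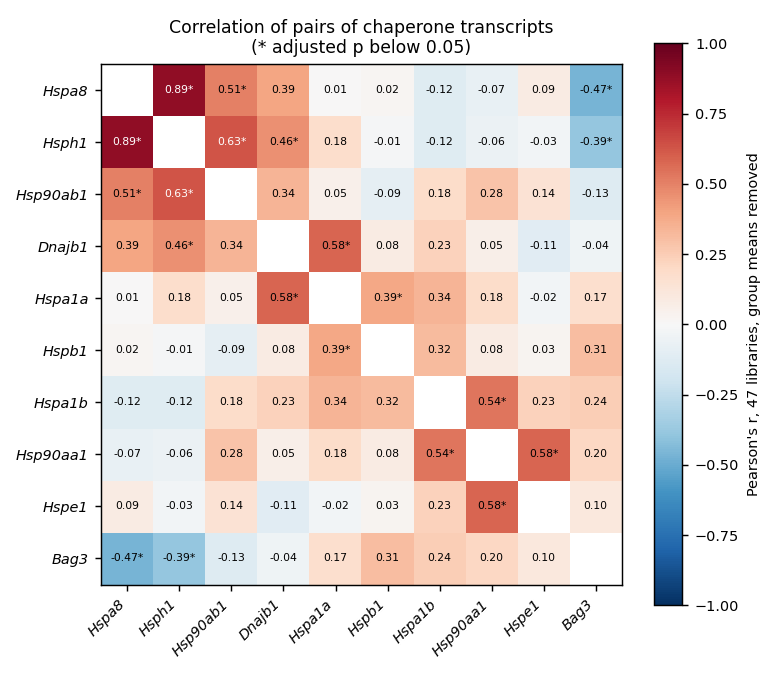
Pearson's r of each pair of the 10 chaperone transcripts over 47 libraries after group means were removed (color scale from -1 to 1); asterisks mark adjusted p below 0.05. Hspa8, Hsph1 and Hsp90ab1 form one set of positive pairs, and Hsp90aa1 pairs with Hspe1 and Hspa1b.

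The strongest pair was Hspa8 with Hsph1, the constitutive Hsp70 and its exchange factor (r = 0.89, permutation p = 1e-05, adjusted p = 0.000225; rho = 0.817, p = 1e-05), where 1e-05 is the smallest p that the permutations can give. It was 0.791 without the 2 libraries farthest from the median, and ran from 0.828 to 0.925 within the 4 groups. Hsp90ab1 went with both, with r = 0.626 for Hsph1 (rho = 0.608, permutation p = 1e-05 and 4e-05) and 0.507 for Hspa8 (rho = 0.492, permutation p = 0.00087 and 0.0007), and 0.559 and 0.4 without those libraries. Bag3 ran against them, at -0.467 for Hspa8 (rho = -0.264, permutation p = 0.00107 and 0.0746) and -0.385 for Hsph1 (rho = -0.265, permutation p = 0.0078 and 0.0829). These negative relations rested on 2 libraries, Old PF4 8 and Young Veh 4: without them r was -0.193 and -0.133.

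Old PF4 8 held 8.99 log2 CPM of Hspa8 and 9.01 of Hsph1, and Young Veh 4 held 8.93 of each, with 9035 counts on both genes. They were 0.58 and 0.55 above their group means for Hspa8, and no other library exceeded them. Both are deep, at 12380047 and 19508854 counts. They had the 2 lowest levels of all 47 for Gm42418, a locus that overlaps ribosomal RNA sequence (8.61 and 8.74 log2 CPM, beside a median of 11.25), and the 2 lowest values of the length index, at -0.23 and -0.35 beside a median of 0.01. Over all libraries Hspa8 went against the length index (r = -0.715, rho = -0.442, permutation p = 2e-05 and 0.00215, adjusted p = 0.0012 and 0.043), also without these 2 (r = -0.43). For Hsph1 the relation was -0.479 (rho = -0.218, permutation p = 0.00336 and 0.141) and fell to -0.085 without them, and for Bag3 it was 0.451 (rho = 0.216, permutation p = 0.004 and 0.167) and 0.198 without them.

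Hsp90aa1 went with Hspe1 (r = 0.582, rho = 0.541, permutation p = 6e-05 and 0.00029, adjusted p = 0.0009 and 0.00435), with 0.599 without the 2 farthest libraries, and with Hspa1b (r = 0.537, rho = 0.492, permutation p = 0.00022 and 0.00094), with 0.444 without them. With its paralog Hsp90ab1 r was 0.282 (rho = 0.295, permutation p = 0.0474 and 0.0496, adjusted p = 0.133 and 0.181), and 0.377 without the 2 farthest (permutation p = 0.0131). Hsp90aa1 also rose with Gm42418 (r = 0.578, rho = 0.676, permutation p = 3e-05 and 2e-05; 0.821 without the 2 farthest), while Hspa8 and Hsph1 went against Gm42418 (r = -0.744 and -0.676, rho = -0.409 and -0.395, permutation p of r = 2e-05 for both; -0.474 and -0.414 without the 2 farthest). Hspa1b also rose with Gm42418 (r = 0.498, rho = 0.562, permutation p = 0.00068 and 0.00016; 0.59 without the 2 farthest), as did Bag3 by r alone (r = 0.514, rho = 0.302, permutation p = 0.00034 and 0.0423, adjusted p = 0.00136 and 0.121; 0.319 without the 2 farthest). Hspe1 rose with it by rho alone (r = 0.269, rho = 0.429, permutation p = 0.0843 and 0.00428, adjusted p = 0.169 and 0.0196), and r was 0.507 without the 2 farthest. Gm42418 and the GC index were added as measures after the values were seen, in a family of 20 relations of the 10 genes, of which 5 with Gm42418 and 2 with the GC index passed by r.

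Dnajb1 went with neuronal activity genes. With the mean level of 12 immediate early genes, its r was 0.51 (rho = 0.486, permutation p = 0.0002 and 0.00073, adjusted p = 0.006 and 0.0219 over 60 relations), and it was 0.483 without the 2 farthest libraries. Within groups it was 0.692 in Young Veh, 0.62 in Old Veh and 0.784 in Old PF4, and 0.02 in Young PF4; these were not tested against each other. Of the other 9 genes, Hsph1 (r = 0.367, permutation p = 0.0114, adjusted p = 0.0852) and Hsp90ab1 (r = 0.332, permutation p = 0.0259, adjusted p = 0.156) came next with this score, and the differences from Dnajb1 were not tested. With Hsph1 the r of Dnajb1 was 0.456 (rho = 0.516, permutation p = 0.00359 and 0.00041), and 0.381 without Old PF4 8 and Young Veh 4, where it no longer passed (adjusted p = 0.0802). With Hspa8 it was 0.393 (rho = 0.498, permutation p = 0.0193 and 0.00069, adjusted p = 0.0725 and 0.00525), which passed by rho alone. By r, Dnajb1 with Hspa8 passed with the length index regressed out (r = 0.62, adjusted p = 0.00099). It also passed without the 8 libraries of lowest total count (r = 0.541, adjusted p = 0.0132) and without Young Veh 13 (r = 0.493, adjusted p = 0.00872). It did not without Old PF4 8 and Young Veh 4 (r = 0.32, adjusted p = 0.183) or with the GC index regressed out (r = 0.346, adjusted p = 0.132). With Hspa1a, its Hsp70 partner, r was 0.584 (rho = 0.301, permutation p = 0.00088 and 0.0523), but it was 0.193 without Young Veh 13 and Old Veh 9 (permutation p = 0.213) and 0.231 without the 8 libraries of lowest total count. Hspa1a with Hspb1 (r = 0.385, rho = 0.299, permutation p = 0.00319 and 0.0414) was 0.223 without those 8. Without Young Veh 13 and Old Veh 9 its r was 0.331 (permutation p = 0.0271). Young Veh 13 had the highest Hspa1a (4.42), Dnajb1 (6.64) and Hspb1 (1.51 log2 CPM) of all libraries and the lowest total, 2242879 counts, and its Hspa1a level rests on 48 counts.

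**Figure D4:**
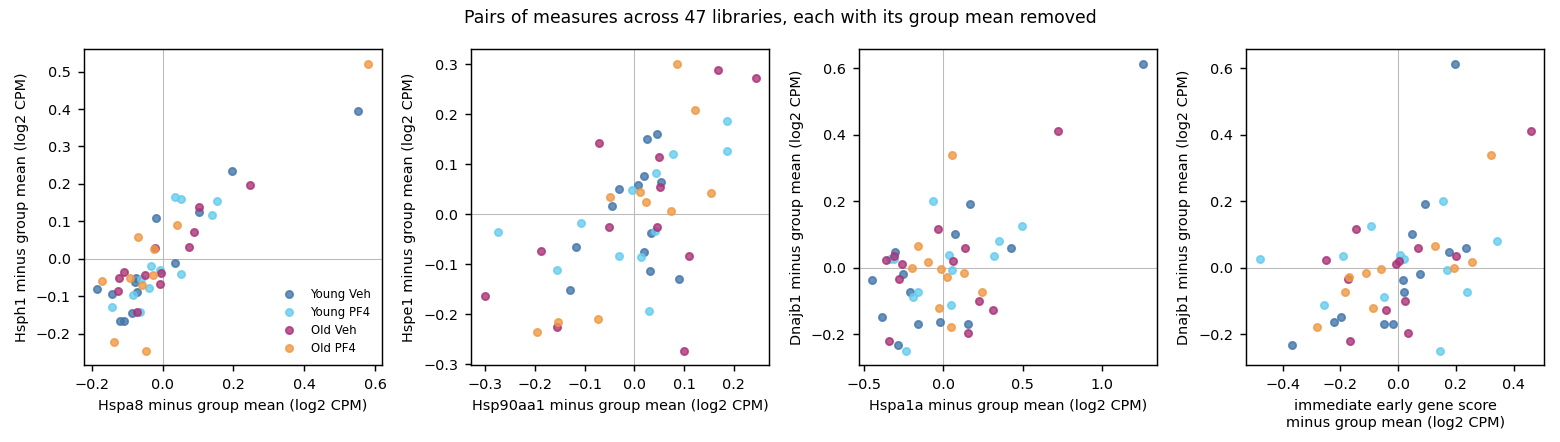
Pairs of measures over 47 libraries, each minus its group mean (both axes in log2 CPM; colors mark the 4 groups): Hspa8 with Hsph1, Hsp90aa1 with Hspe1, Hspa1a with Dnajb1, and the immediate early gene score with Dnajb1. The first relation is carried by all groups and stretched by 2 libraries at the upper right, and the third rests on 1 Young Veh and 1 Old Veh library.

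Bag3 went against Cirbp, an RNA-binding gene that rises in the cold (r = -0.53, rho = -0.515, permutation p = 0.00032 and 0.00046, adjusted p = 0.0064 and 0.0219), also without the 2 farthest libraries (r = -0.548). With Rbm3, the other listed gene that responds to temperature, Bag3 had r = -0.0118 (rho = -0.0312, permutation p = 0.936 and 0.839). Without the 2 farthest libraries this r was -0.00156. Body temperature was not among the measures. In all, 6 of 60 relations of the 10 genes with total count, length index, choroid plexus score, immediate early gene score, Cirbp and Rbm3 passed. The sixth was Hsp90ab1 with the choroid plexus score (r = -0.462, rho = -0.429, permutation p = 0.00184 and 0.00438, adjusted p = 0.0276 and 0.0657), with -0.495 without the 2 farthest libraries. Within groups r was -0.905 in Old PF4, -0.742 in Young PF4, -0.167 in Old Veh and -0.0205 in Young Veh, and these were not tested against each other. The score had 26 libraries above and 21 below 3, a cut made on the score itself that narrows its range. Within these sets r was -0.137 (permutation p = 0.601) and 0.098 (permutation p = 0.75), and 0 of 20 such relations of the 10 genes passed.

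Genes whose pattern was most like the heat-inducible chaperones were ranked by r with the mean z score of Hspa1a, Hspa1b, Dnajb1, Hsph1, Hsp90aa1, Hspb1 and Bag3, over 47 libraries and 11547 genes. The 10 highest were P4ha1 (0.728), Manf (0.64), Errfi1 (0.626), Ccdc117 (0.62), Rbm12 (0.609), Hist3h2a (0.601), Bud13 (0.596), Slc15a4 (0.592), Ints6 (0.587) and Pcf11 (0.579), and the 5 lowest Vps51 (-0.661), Prkab1 (-0.625), Bend5 (-0.622), Amer1 (-0.617) and 9330182L06Rik (-0.616). The index itself held unlike genes: r with it was 0.744 for Hspa1a and 0.278 for Hsph1. For Hspa8 and Hsph1 together the nearest genes were Psmd5 (0.901), Vti1b (0.892) and Cct5 (0.884), a TRiC subunit. For Hsp90aa1 and Hspe1 together they were Rnasek (0.811), Gm21988 (0.81) and Pfdn5 (0.806), a prefoldin subunit, and for Dnajb1 they were Sap30 (0.757) and Arc (0.714), itself 1 of the 12 immediate early genes. These 3 further rankings were added after the values were seen, and all rankings are descriptions without a test.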

How the data were processed

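Bulk RNA of 47 hippocampi was sequenced from full-length cDNA with a kit that does not mark strand. The submitters' processing notes name Trim Galore 0.3.7, STAR 2.5.3a, DESeq2 and GRCm38; how reads matching several genes were counted is not given in the sources used here. The authors deposited raw counts per gene, and left out the most shallow samples. The groups came from the sample titles. Libraries are separate mice.

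The counts went into edgeR 4.0.16 (R 4.3.3) and its quasi-likelihood test (TMM scaling, filterByExpr, all 4 groups in 1 fit, Benjamini-Hochberg over 17778 genes, threshold 0.05); DESeq2 1.42.0 was an alternative. Standard errors and intervals were derived from each fold change and its p. Levels are log2 CPM with a prior count of 2, and RPKM used exon lengths of GENCODE vM21. Scores are means of log2 CPM. Length and GC indices used 99.4% of genes tested. Correlations removed group means and permuted libraries within groups (100000 resamples). Methods were tested on simulated data. The members and gene lists were chosen with earlier results of these data known. Named genes are the members, and from each list every gene called in a comparison, otherwise the one of smallest p in Old Veh against Young Veh. Of the genes that this rule or the rankings name, some are not reported here, among them 1 that was called with age. A count of 0 allows up to 3 counts; this and all counting limits cover counting error only. Alternatives were other scalings, filters, covariates and left-out libraries.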

Additional observations from a re-analysis of the deposited data

Results flagged for a closer look

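Among the 10 levels in Old PF4, the only group of 10 or fewer libraries, 4 had 1 library far from the others, by the gap to its neighbor over the range of the group (Dixon's ratio, critical value 0.466). Chance gives such a gap in about 1 of 20 groups. Old PF4 8 was the highest for Hspa8 (8.99 log2 CPM beside 8.45 for the next, ratio 0.72), for Hsph1 (9.01 beside 8.58, ratio 0.561) and for Dnajb1 (6.21 beside 5.94, ratio 0.529). It also had the highest immediate early gene score and the lowest Gm42418 level and GC index of all 47 libraries, and their part in these levels was not tested. Old PF4 1 was the lowest for Hspb1 (-2.35 log2 CPM beside -0.69, ratio 0.524), where it had 0 counts of 3454889.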

How the results depend on the processing

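No member was called in any comparison under the settings tried, which left out a library, changed the scaling, the filter or the tool, or added a covariate, except for Dnajb1 and Hsph1 in Old Veh against Young Veh. A filter of at least 10 CPM in at least 10 libraries left 7 members, without Hspa1a, Hspa1b and Hspb1. With each library left out in turn, 0 to 1 members were called in Old Veh against Young Veh, and the 1 was Dnajb1 without Old Veh 9. The GC index as a covariate and the fit without Old PF4 8 and Young Veh 4 were chosen after seeing the data, and the first of these called 2 members there, Dnajb1 and Hsph1. Over the settings other than a single left-out library, the adjusted p of Dnajb1 there ran from 0.0291 to 0.157. The cause of these changes was not tested.

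The count of all genes called moved more. For Old Veh against Young Veh it was 492, then 901 with the length index as a covariate, 920 with the GC index, 807 without Old PF4 8 and Young Veh 4 and 176 without the 8 libraries of lowest total count. For Old PF4 against Old Veh it was 6, then 24 with DESeq2, 21 with the GC index, 10 with the choroid plexus score, 0 with the length index, 0 without the 8 libraries, 0 with both groups fitted alone, and 0 to 20 with 1 library left out. For Old PF4 against Young PF4 it was 59, then 90 with DESeq2, 98 with the length index, 89 without Old PF4 8 and Young Veh 4, 21 with both groups fitted alone and 36 to 91 with 1 library left out. The difference of PF4 effects gave 0, and 1 without a count filter.

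Replicate numbers were not treated as pairs: of 66 same-numbered pairs of libraries across groups, 21 had deviations correlated over 0.1 (median -0.0063), and 6 of 47 libraries had their best correlation outside their group with their own number. With the number as a block, 453, 10, 0, 90 and 0 genes were called in the 5 comparisons, in the order of the report, and 0 members.

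Of the 50 fold changes of members, none of them called, 31 of 534 values under the alternatives and 51 of 1410 with 1 library left out had the opposite sign. In Old Veh against Young Veh the GC index gave 0.089 for Hspa1b, 0.010 for Hsp90aa1 and 0.038 for Bag3, the length index 0.017 for Hspa8 and 0.0011 for Hsp90ab1, and leaving out Old PF4 8 and Young Veh 4 gave 8.1e-06 for Hsp90aa1. With PF4 in old mice, Hspa1a was 0.081 with the length index, 0.0098 with the choroid plexus score, 0.097 without the 8 libraries and 0.0036 with the GC index, Hsph1 was -0.0024 with the length index and -0.014 without Old PF4 8 and Young Veh 4, and Bag3 was -0.021 both with the GC index and under the block. With PF4 in young mice, leaving out the 8 libraries gave 0.0064 for Hspa1a, 0.014 for Hsp90aa1 and 0.0026 for Bag3, Hspa8 was 0.011 without Old PF4 8 and Young Veh 4, and Hspa1b summed with Hspa1a was -0.083. Between Old PF4 and Young PF4, Hsph1 was -0.018 with the choroid plexus score, -0.0021 without the 8 libraries, -0.041 without Old PF4 8 and Young Veh 4 and -0.057 with the GC index, Bag3 was 0.014, 0.036 and 0.050 with that score, without that pair and with that index and 0.015 with the length index, and Hsp90aa1 was -0.0017 without the 8 libraries. For the difference of PF4 effects, Hspb1 was -0.044 without the 8 libraries, Bag3 -0.0074 under the block and Hspa1b, summed, 0.040.

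With 1 library left out, Hspa1b ran from -0.13 to 0.055, Hsp90aa1 from -0.028 to 0.023 and Hsp90ab1 from -0.019 to 0.0017 in Old Veh against Young Veh. With PF4 in old mice Hspa1a ran from -0.044 to 0.043, Hsph1 from -0.013 to 0.079 and Hsp90aa1 from -0.0047 to 0.047. With PF4 in young mice Hspa8 ran from -0.059 to 0.0091, Hsp90aa1 from -0.034 to 0.0093, Hsp90ab1 from -0.0039 to 0.016 and Bag3 from -0.075 to 0.022. Between Old PF4 and Young PF4, Hspa1a ran from -0.086 to 0.0012, Hspa8 from -0.0026 to 0.095, Hsph1 from -0.045 to 0.049 and Bag3 from -0.055 to 0.032. For the difference of PF4 effects Hspb1 ran from -0.069 to 0.40. The other 35 fold changes kept their sign with each library left out, but 45 of the 50 moved by over 1.5 times with at least 1 of them.

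The number of correlated pairs was 10, and ran from 7 to 11 under the alternatives. Hspb1 and Hspa1b rest on few counts, and their wide intervals allow changes that these depths would not show. The interval of Hspa1b in Old PF4 against Old Veh does not measure depth alone. Its SE derived from p was 0.39, beside 0.21 in DESeq2.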
